A study of Mus musculus with 6 samples.

Results

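The chemokine system of thymic tuft cells was examined as 63 genes, taken by symbol from the 55471 genes of the expression table. Members were all genes whose symbol is Ccl, Cxcl, Ccr or Cxcr followed by a digit, together with Cx3cl1, Cx3cr1, Xcl1, Xcr1 and the atypical receptors Ackr1 to Ackr4. They comprised 40 ligands, 19 signalling receptors and 4 atypical receptors. Of these, 59 had at least 1 read and 4 had none (Ccl19-ps1, Ccl19-ps3, Ccl21b and Ccl27b). A mean of at least 10 normalized counts over the 6 libraries was reached by 44 members (31 ligands, 10 signalling receptors and 3 atypical receptors), which were tested, and the other 15 with reads were not. A normalized count is a gene's read count divided by 1 size factor per library.

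Chemokines are small secreted proteins that attract leukocytes by activating G protein-coupled receptors on their surface. Atypical receptors bind chemokines without coupling to G proteins and remove them from the surroundings. In the thymus, epithelial cells make ligands that draw in progenitors and move maturing thymocytes from cortex to medulla, while tuft cells are rare medullary epithelial cells that resemble the chemosensory tuft cells of the gut and airways.

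RNA was sequenced from tuft cells of mouse thymus sorted on the adhesion molecule L1CAM into a SMART-seq lysis buffer. Ikzf1, which encodes Ikaros, a transcription factor with zinc fingers, was floxed in all mice. The 3 samples of genotype WT were Foxn1-Cre (-)/Ikzf1fl/fl and the 3 of genotype KO were Foxn1-Cre (+)/Ikzf1fl/fl, and the comparison is between these genotypes. The Foxn1 promoter drives Cre in thymic epithelium as a whole, not in tuft cells alone. The 6 expression columns carry the names Het1, Het2, Het3, Ko1, Ko2 and Ko3. Het was matched to WT by elimination, since Ko matched KO. The sources used here give no age and do not say whether animals were pooled or whether the 3 samples of a group are different mice. The p-values therefore reflect the spread among these samples, part of which may be technical.

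The libraries held 12238400 to 31435800 reads and 26727 to 35130 genes with a read. Het3 and Ko3 were the least deep, and there 3 reads equal 4.33 and 4.30 normalized counts. Ikzf1 (ENSMUSG00000018654), the targeted gene, stood at 301 in Het1, 187 in Het2, 273 in Het3, 1572 in Ko1, 1463 in Ko2 and 1717 in Ko3. It was thus higher in every library labelled Ko, against its label, and the log2 fold change came to 2.66 ± 0.30 (SE), at a limma adjusted p of 0.0105, a call lost without Het3 (0.0621) and without a filter on low values (0.0887). Which exons are floxed is not given, and these values cover the gene as a whole and cannot show their loss. All directions that follow are between libraries as labelled. L1cam, the sort marker, was read in all libraries at a Het mean of 2745 ± 331 and a Ko mean of 3670.1 ± 687 (n = 3 each, SD; limma adjusted p = 0.408). All 14 tuft cell markers had a mean above 10, and Rgs13 and Ptgs1 were called higher in Ko libraries. The sum of the 14 was higher in Ko (209354 to 254157) than in Het libraries (124215 to 175414), but without Rgs13 the groups overlapped (139886 to 156096 and 92057 to 140843).

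Of the 44 tested members, 1 was called higher in Ko libraries (Ackr4) and 0 lower by limma at an adjusted p under 0.05. Over all 19416 genes tested, 0.288% were called higher and 0.525% lower. At an unadjusted p under 0.05 the members numbered 13 (29.5%), against 2644 (13.6%) of all genes. In 12 members (27.3%) the 3 Ko values did not overlap the 3 Het values, 9 lower in Ko (20.5%; 9.86% over all genes) and 3 higher (6.82%; 8.57% over all genes). Ko lay lower for the ligands Cxcl16, Cxcl17, Cxcl2, Cxcl3, Ccl6, Ccl9, Ccl12 and Cxcl13 and the receptor Ccr4, and higher for Ackr4, Ccl19 and Cxcr6. The log2 fold change (Ko over Het, of the normalized count + 1) was positive for 16 members and negative for 28, with a median of -0.83, beside -0.05 over all genes tested. Without Het3 limma called 0 genes of all those tested, with 2080 at an unadjusted p under 0.05, so every limma call named here needs that library. In these bulk libraries, fewer cells of a type and less RNA per cell cannot be told apart.

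Other tests gave other counts. DESeq2 on recovered reads called 2 members higher (Ackr4, Cxcr6) and 7 lower (Cxcl2, Cxcl17, Ccr4, Cxcl16, Ccl12, Ccl9 and Ccl6), where 2.1% and 4.24% of all genes were called. The authors' deposited table has adjusted p-values for 43 members and calls 3 of them higher (Ackr4, Ccl19, Cxcr6) and 6 lower (Ccl12, Ccl6, Ccl9, Ccr4, Cxcl16, Cxcl17), where 3.03% and 5.16% of all genes are called. The edgeR quasi-likelihood test called 0 members, 13 of which had an unadjusted p under 0.05, and 0.124% of all genes higher and 0.263% lower.

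**Figure D1:**
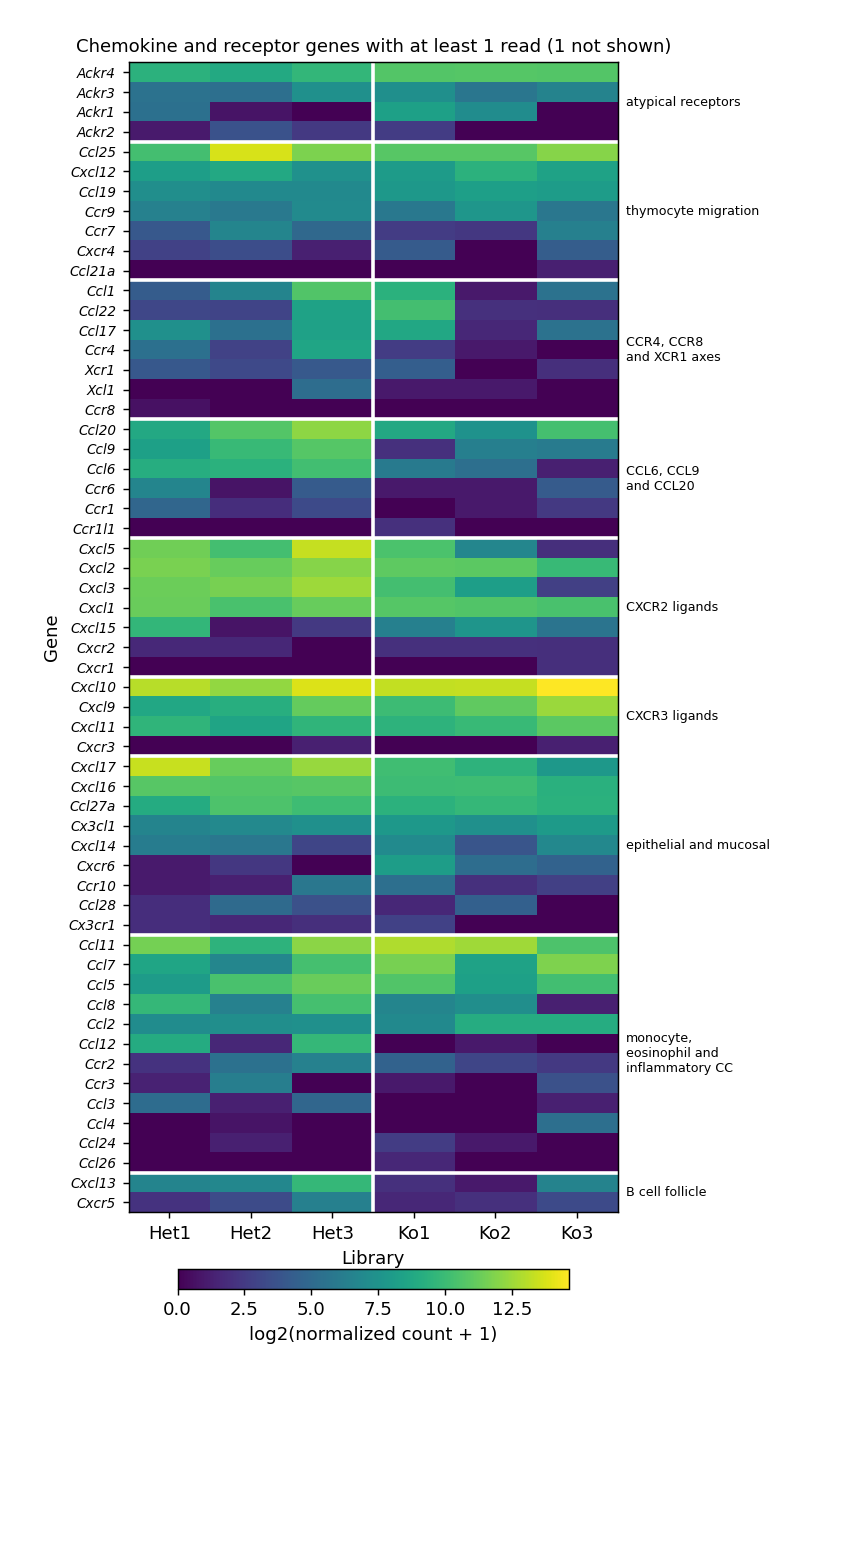
Each row is a chemokine or receptor gene with a read (1 such gene is not shown), each column a library, and the colour is log2(normalized count + 1), with genes grouped by role. Ligand rows such as Cxcl10 and Cxcl2 are bright, while most receptor rows other than Ackr4 are dark.

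**Figure D2:**
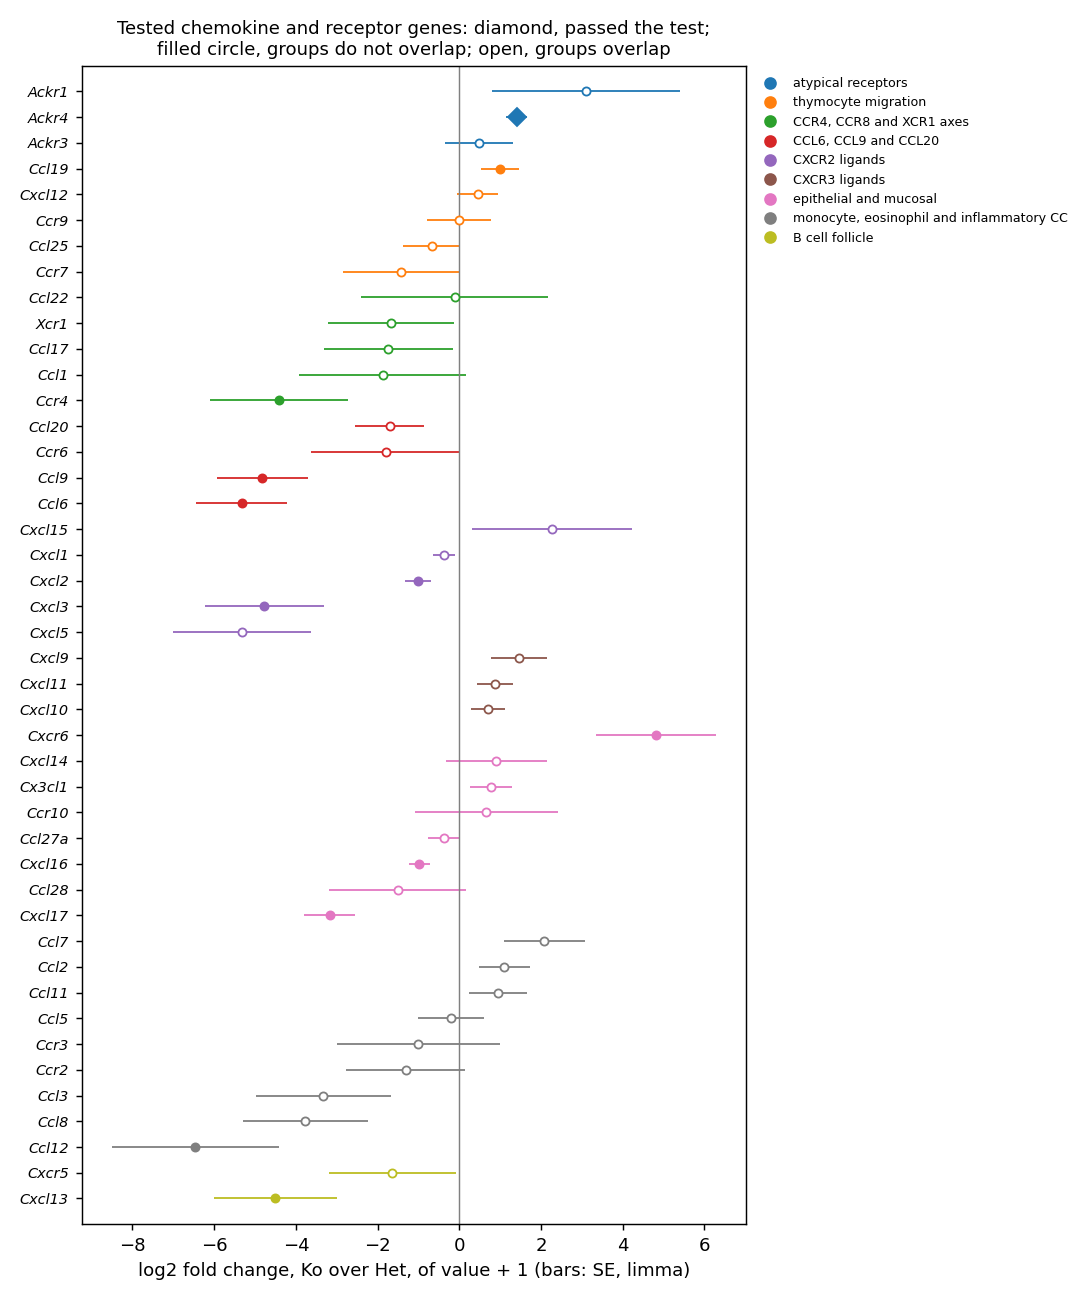
The horizontal axis is the log2 fold change of the 44 tested genes, Ko over Het, with SE bars, and colours mark roles. Ackr4 (diamond) is the gene that passed the test, and 28 of the 44 points lie left of 0.

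Ackr4 (ENSMUSG00000079355) encodes an atypical receptor that scavenges CCL19, CCL21 and CCL25, the chemokines that guide thymocytes and dendritic cells. It stood at 669 in Het1, 479 in Het2, 827 in Het3, 1663 in Ko1, 1770.4 in Ko2 and 1660.2 in Ko3. Every Ko library lay above every Het library, and the Ko values were close to one another. The libraries gave a Het mean of 658 ± 174 and a Ko mean of 1698 ± 63.0 (n = 3 each, SD), 2.58-fold higher in Ko, and the log2 fold change came to 1.40 ± 0.27 (SE), at a limma adjusted p of 0.0485. The call was lost without any 1 of the 6 libraries (adjusted p 0.0776 to 0.150), with edgeR (0.0773) and without a filter on low values (0.252), while DESeq2 gave an adjusted p of 0.000204. Part of the gene (479 of 5380 exon bases) overlaps Acad11 on the opposite strand, whose values of 724, 510 and 750 in Het and 289, 754 and 421 in Ko libraries overlapped between the groups. Strandedness is not given, so reads in that part cannot be assigned to 1 of the genes.

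The 250 bases before the Ackr4 start are shown since it is the member that passed the test (RefSeq, GRCm38.p6, chr9:104126644-104126893, minus strand, printed 5′ to 3′ on the gene's strand). Capitals mark every match, on either strand, to GGGAA or GGGNNNNNCC. The first is a core recognised by Ikaros and also lies within many NF-kB sites, and the second is a loose form of the NF-kB site, so matches to the 2 can overlap.
Ackr4: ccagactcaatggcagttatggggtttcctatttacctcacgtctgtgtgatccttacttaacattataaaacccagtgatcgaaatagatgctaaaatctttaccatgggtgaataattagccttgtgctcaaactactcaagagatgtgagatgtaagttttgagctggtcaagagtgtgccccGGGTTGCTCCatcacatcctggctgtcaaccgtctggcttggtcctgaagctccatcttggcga
This window holds 1 match to GGGNNNNNCC and 0 to GGGAA. Over 32851 promoters of the same length, 56.2% hold GGGAA and 45.8% hold GGGNNNNNCC. Among the 53 promoters found for 46 of the member genes, 34 hold the first and 28 the second. A match is a description of the letters and not a measured binding site.

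The other atypical receptors varied among libraries. Ackr3 (a scavenger of CXCL12) stood at 44.2 in Het1, 39.8 in Het2, 160.2 in Het3, 156 in Ko1, 52.8 in Ko2 and 93.1 in Ko3, with a log2 fold change of 0.48 ± 0.83 (SE; limma adjusted p = 0.857). Ackr1, which binds chemokines on red cells and venules, stood at 41.4 in Het1, 0.710 in Het2, 0 in Het3, 318 in Ko1, 139.9 in Ko2 and 0 in Ko3. Its high values came from Ko1, Ko2 and, at a lower level, Het1, while Ko3 had no read, and the log2 fold change came to 3.09 ± 2.30 (SE), at a limma adjusted p of 0.614. Of its 1405 exon bases, 361 are shared with Cadm3 on the same strand. Ackr2 did not reach a mean of 10, with values of 0 to 12.1.

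Ligands of thymocyte migration came next. CCL19 and CCL21 bring CCR7-bearing thymocytes into the medulla, CCL25 acts through CCR9 in the cortex and on incoming progenitors, and CXCL12 acts through CXCR4. Ccl19 stood at 149 in Het1, 123 in Het2, 124 in Het3, 221 in Ko1, 306 in Ko2 and 274 in Ko3. All Ko values lay above all Het values, at a Het mean of 132 ± 14.6 and a Ko mean of 267 ± 42.6 (n = 3 each, SD), 2.02-fold higher, although the gene did not pass the test with a log2 fold change of 1.0039 ± 0.47 (SE; limma adjusted p = 0.385). The authors' deposited table gives it an adjusted p of 0.0143. Ccl21a had 1 read in all and Ccl21b none, and reads from these near-identical copies and from the Ccl19 pseudogenes may be split or dropped in counting, which leaves their levels uncertain.

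Ccl25 stood at 1202 in Het1, 13554 in Het2, 3401 in Het3, 1832 in Ko1, 1849 in Ko2 and 3979 in Ko3. Het2 was far above the other 5 libraries, which overlapped, and the log2 fold change of -0.68 ± 0.70 (SE; limma adjusted p = 0.734) turned to 0.24 without Het2. The gene shares 204 of 7445 exon bases with Elavl1 on the opposite strand. Its receptor gene Ccr9 stood at 85.0 in Het1, 59.6 in Het2, 127 in Het3, 56.6 in Ko1, 206 in Ko2 and 54.4 in Ko3, with a log2 fold change of -0.0044 ± 0.78 (SE; limma adjusted p = 0.999) and groups that overlapped. It shares exon bases with Gm17200 on the same strand (269 of 10260) and with AC165425.1 on the opposite strand (1932). Cxcl12 stood at 299 in Het1, 460.1 in Het2, 166 in Het3, 257 in Ko1, 666 in Ko2 and 338 in Ko3, again with overlapping groups, and the log2 fold change came to 0.45 ± 0.51 (SE), at a limma adjusted p of 0.767. Ccr7 ranged over 15.1 to 102 in Het and 4.14 to 81.6 in Ko libraries and was highest in Het2 and Ko3, with a log2 fold change of -1.44 ± 1.42 (SE; limma adjusted p = 0.720). Cxcr4 stayed under a mean of 10, at 0 to 18.6.

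The ligands CCL17 and CCL22 act on CCR4, which guides maturing thymocytes and regulatory T cells, CCL1 acts on CCR8, and XCL1, made by medullary epithelium, positions XCR1-bearing dendritic cells. Ccl17 stood at 164 in Het1, 41.2 in Het2, 329 in Het3, 439 in Ko1, 2.07 in Ko2 and 44.4 in Ko3, with Ko1 and Het3 the highest and Ko2 near the detection limit. The log2 fold change came to -1.74 ± 1.58 (SE), at a limma adjusted p of 0.696. Ccl22 stood at 7.83 in Het1, 7.10 in Het2, 341 in Het3, 1213 in Ko1, 3.11 in Ko2 and 2.86 in Ko3, so that 1 library in each group (Het3 and Ko1) held nearly all of it, with a log2 fold change of -0.11 ± 2.29 (SE; limma adjusted p = 0.990) whose sign depended on the setting. Ccl1 stood at 17.9 in Het1, 95.1 in Het2, 1620.3 in Het3, 638 in Ko1, 1.04 in Ko2 and 44.4 in Ko3, also highest in Het3 and Ko1, and the log2 fold change came to -1.88 ± 2.04 (SE), at a limma adjusted p of 0.751. The 3 ligands thus shared their 2 highest libraries, 1 of each genotype.

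Ccr4 stood at 41.4 in Het1, 6.39 in Het2, 388 in Het3, 5.14 in Ko1, 1.04 in Ko2 and 0 in Ko3. All Het values lay above all Ko values, Het3 far above the rest, and the Ko libraries held 6 reads in all. The libraries gave a Het mean of 145 ± 211 and a Ko mean of 2.06 ± 2.72 (n = 3 each, SD) with a log2 fold change of -4.42 ± 1.69 (SE; limma adjusted p = 0.293). DESeq2 gave an adjusted p of 0.00246, and the adjusted p ran from 0.00246 to 0.829 over 13 alternatives. Xcl1 was not tested: it had 25 reads in Het3, none in Het1 and Het2, and 2 in the Ko libraries, a ratio of rates Het over Ko of 8.47 (95% interval 2.11 to 73.8) that covers counting error only. Its receptor Xcr1 ranged over 8.52 to 15.9 in Het and 0 to 19.5 in Ko libraries, with a log2 fold change of -1.68 ± 1.55 (SE; limma adjusted p = 0.702), and Ccr8 had 1 read.

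Ccl6 and Ccl9 lie side by side on chromosome 11 and encode CC ligands of the receptor CCR1 that attract myeloid cells. Ccl6 (ENSMUSG00000018927) stood at 547 in Het1, 660.3 in Het2, 1183 in Het3, 64.8 in Ko1, 40.4 in Ko2 and 1.43 in Ko3. All Het libraries lay far above all Ko libraries, and Ko3 was lowest. The libraries gave a Het mean of 797 ± 339 and a Ko mean of 35.6 ± 32.0 (n = 3 each, SD), 22.4-fold higher in Het, and the log2 fold change came to -5.33 ± 1.11 (SE), at a limma adjusted p of 0.0646. Ccl9 (ENSMUSG00000019122) stood at 318 in Het1, 923 in Het2, 1753 in Het3, 3.09 in Ko1, 79.8 in Ko2 and 67.3 in Ko3, again with all Het libraries above all Ko libraries. The gene had a Het mean of 998 ± 721 and a Ko mean of 50.1 ± 41.2 (n = 3 each, SD), 19.9-fold higher in Het, and the log2 fold change came to -4.83 ± 1.11 (SE), at a limma adjusted p of 0.0868. Neither passed limma, and DESeq2 gave adjusted p-values of 2.2e-07 for Ccl6 and 2.69e-06 for Ccl9. For Ccl6 the adjusted p ran from 2.2e-07 to 0.540 over 13 alternatives, and for Ccl9 the adjusted p ran from 2.69e-06 to 0.659 over 13 alternatives.

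The bases before both starts are shown since this neighbouring pair had the largest negative log2 fold changes among tested CC ligands after Ccl12, with capitals as for Ackr4 (RefSeq, GRCm38.p6; Ccl6 chr11:83593088-83593337, minus strand; Ccl9 chr11:83578637-83578886, minus strand).
Ccl6: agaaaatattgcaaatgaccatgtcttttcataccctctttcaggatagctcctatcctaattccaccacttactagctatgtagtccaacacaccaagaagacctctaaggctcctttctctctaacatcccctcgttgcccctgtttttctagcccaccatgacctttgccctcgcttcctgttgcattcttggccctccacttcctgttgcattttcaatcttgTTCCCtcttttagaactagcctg
Ccl9: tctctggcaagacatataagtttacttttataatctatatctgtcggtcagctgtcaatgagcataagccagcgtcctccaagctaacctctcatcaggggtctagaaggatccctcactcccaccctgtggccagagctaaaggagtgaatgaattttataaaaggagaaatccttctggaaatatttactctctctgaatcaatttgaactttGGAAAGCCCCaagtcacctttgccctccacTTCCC
Each window holds 1 match to GGGAA, read on the opposite strand as TTCCC, 23 bases before the start of Ccl6 and 5 before that of Ccl9. Ccl9 also holds 1 match to GGGNNNNNCC, 35 bases before its start, and Ccl6 holds 0.

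Some marker genes of other cells were also lower in Ko libraries. Of the 7 microfold cell markers, Gp2 (a Het mean of 13495 ± 7002 and a Ko mean of 801 ± 510.0, n = 3 each, SD; limma adjusted p = 0.0123) and Pglyrp1 (a Het mean of 8536 ± 2786 and a Ko mean of 1707 ± 674, n = 3 each, SD; limma adjusted p = 0.0190) were called lower, the first lost without Het3 and the second without Het2 or Het3. Spib lay higher in Ko without overlap (a Het mean of 4626 and a Ko mean of 6264), and the other 4 overlapped. The microfold sum was 37361 to 49505 in Het and 24994 to 26016 in Ko libraries, and without Gp2 and Pglyrp1 the groups overlapped (18257 to 23150 and 22379 to 24318). The 7 neutrophil and mast cell markers summed to 1102 to 6483 in Het and 17.5 to 273 in Ko libraries, led by S100a8 and S100a9. Without these 2 they summed to 134 to 851 and 5.73 to 8.23. Most of this Het remainder was Ly6g (36.9 in Het1, 846 in Het2 and 216 in Het3) and Cpa3 (91.7, 0 and 113). Ly6g lay lower in Ko without overlap, and Cpa3 overlapped. S100a9 was called lower (limma adjusted p = 0.0272; lost with edgeR, at 0.0728, and without Het1, Het2, Het3 or Ko2), while Csf3r, Mpo and Mcpt4 had means under 10. The 8 macrophage and monocyte markers summed to 5352 to 53625 in Het and 1083 to 3018 in Ko libraries, but without Lyz2 the groups overlapped (325 to 1686 and 118 to 650.3), and Mertk had a mean under 10. Of the 8 markers of Aire-stage medullary epithelium, Cd80, Cd52 and Ubd lay lower in Ko without overlap and 0 lay higher. The sums of the 8 overlapped (31073 to 95425 in Het and 21480 to 31552 in Ko libraries). Of the 6 ciliated cell markers, Foxj1, Dynlrb2 and Sntn lay lower without overlap and 0 higher. Limma called Sntn (adjusted p = 0.0191), and the sums overlapped (2606 to 7965 and 2921 to 3518). The part of all these cells in the result was not tested.

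Ccl20, the ligand of CCR6 and a product of epithelium near lymphoid tissue, stood at 450.2 in Het1, 1678 in Het2, 4571 in Het3, 452 in Ko1, 174 in Ko2 and 1250.5 in Ko3. The groups overlapped, with Het3 highest and Ko2 lowest, and the log2 fold change came to -1.71 ± 0.84 (SE), at a limma adjusted p of 0.415. Ccr6 ranged over 0.710 to 101 in Het and 1.03 to 17.2 in Ko libraries, with a log2 fold change of -1.80 ± 1.83 (SE; limma adjusted p = 0.727). Ccr1 and Ccr1l1 stayed under a mean of 10, with at most 28.0 and 3.09 normalized counts in any library.

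Cxcl1, Cxcl2, Cxcl3, Cxcl5 and Cxcl15 lie in 1 cluster on chromosome 5, and the first 4 of these encode CXCR2 ligands that draw neutrophils. Cxcl3 (ENSMUSG00000029379) stood at 2598 in Het1, 3197 in Het2, 5770.0 in Het3, 1212 in Ko1, 288 in Ko2 and 5.73 in Ko3. All Het libraries lay above all Ko libraries, and within Ko the values spread from Ko1 down to a few reads in Ko3. Its log2 fold change came to -4.77 ± 1.45 (SE), at a limma adjusted p of 0.178. Cxcl2 (ENSMUSG00000058427) stood at 3267 in Het1, 2425 in Het2, 3946 in Het3, 2062 in Ko1, 2001 in Ko2 and 914 in Ko3, without overlap and with means 1.94-fold higher in Het. The Cxcl2 log2 fold change came to -1.02 ± 0.33 (SE), at a limma adjusted p of 0.200, while DESeq2 gave an adjusted p of 0.0470, and the adjusted p ran from 0.0470 to 0.829 over 13 alternatives.

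Cxcl5 stood at 2848 in Het1, 1211 in Het2, 10570.4 in Het3, 1414 in Ko1, 104 in Ko2 and 2.86 in Ko3. Het2 lay below Ko1, so the groups overlapped in spite of the larger mean in Het, and the log2 fold change came to -5.32 ± 1.69 (SE), at a limma adjusted p of 0.197. Ko3 was the lowest library for both Cxcl3 and Cxcl5, at 4 and 2 reads. Cxcl1 had the value nearest 0 of the 4, a log2 fold change of -0.37 ± 0.27 (SE; limma adjusted p = 0.597), and overlapping groups, at 2531 in Het1, 1370.3 in Het2, 2414 in Het3, 1739 in Ko1, 1624 in Ko2 and 1374 in Ko3. Cxcl15 (lungkine) was high in Het1 alone among Het libraries, at 809 in Het1, 0.710 in Het2, 4.33 in Het3, 82.3 in Ko1, 198 in Ko2 and 48.7 in Ko3, and its log2 fold change of 2.27 ± 1.96 (SE; limma adjusted p = 0.674) turned to -1.33 with edgeR. The receptors Cxcr1 and Cxcr2 stayed under a mean of 10, with at most 2.86 and 3.11 normalized counts in any library.

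The windows before Cxcl2 and Cxcl3 are shown because they share a motif and the genes share the direction of their difference, with capitals as before (RefSeq, GRCm38.p6; Cxcl2 chr5:90903649-90903898, plus strand; Cxcl3 chr5:90785851-90786100, plus strand).
Cxcl2: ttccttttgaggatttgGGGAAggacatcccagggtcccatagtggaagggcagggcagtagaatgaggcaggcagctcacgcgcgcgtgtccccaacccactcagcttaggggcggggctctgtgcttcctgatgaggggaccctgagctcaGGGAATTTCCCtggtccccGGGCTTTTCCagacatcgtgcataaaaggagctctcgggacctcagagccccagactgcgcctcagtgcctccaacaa
Cxcl3: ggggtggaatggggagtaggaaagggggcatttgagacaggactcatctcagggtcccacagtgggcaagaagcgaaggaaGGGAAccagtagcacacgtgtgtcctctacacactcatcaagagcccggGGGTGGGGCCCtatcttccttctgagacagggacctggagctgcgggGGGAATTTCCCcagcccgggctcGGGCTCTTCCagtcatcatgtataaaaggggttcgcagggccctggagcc
Both hold the run GGGAATTTCCC of 11 bases, in which GGGAA on both strands and GGGNNNNNCC overlap, and it starts 97 bases before the start of Cxcl2 and 73 before that of Cxcl3. In all, GGGAA matches 3 times in each window, and GGGNNNNNCC matches 3 times for Cxcl2 and 5 times for Cxcl3, counting both strands and overlaps. The pair was picked for its motif, so the matches cannot tell whether motif and direction go together, which was not tested. Among windows not shown, Ccr4 and Ccl12, lower in Ko, hold 0 matches to GGGNNNNNCC (GGGAA 2 and 1). Ccl19, higher in Ko, holds 1, and 2 to GGGAA.

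Beside these ligands, 32 genes of NF-kB and TNF receptor signalling were listed and 31 tested, of which limma called 0, with 6 (19.4%, against 13.6% of all genes) at an unadjusted p under 0.05. The edgeR test called 0 and DESeq2 4, all lower (Nfkb1, Nfkb2, Nfkbia and Tnfrsf9; 12.9%, against 4.24% of all genes). Of the 31, 20 had negative log2 fold changes (median -0.24, beside -0.05 over all genes). Ko values lay below all Het values in 6 (19.4%, against 9.86% of all genes) and above them in 0 (8.57% of all genes). The smallest p belonged to Nfkbia, the NF-kB inhibitor and itself an NF-kB target, at a Het mean of 27289.8 ± 607 and a Ko mean of 18044 ± 2096 (n = 3 each, SD) with a log2 fold change of -0.60 ± 0.12 (SE; limma adjusted p = 0.0504). Nfkb2, which encodes the p100 precursor of the alternative pathway, stood at a Het mean of 1433 ± 142 and a Ko mean of 749 ± 209 (n = 3 each, SD) with a log2 fold change of -0.96 ± 0.27 (SE; limma adjusted p = 0.146).

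**Figure D3:**
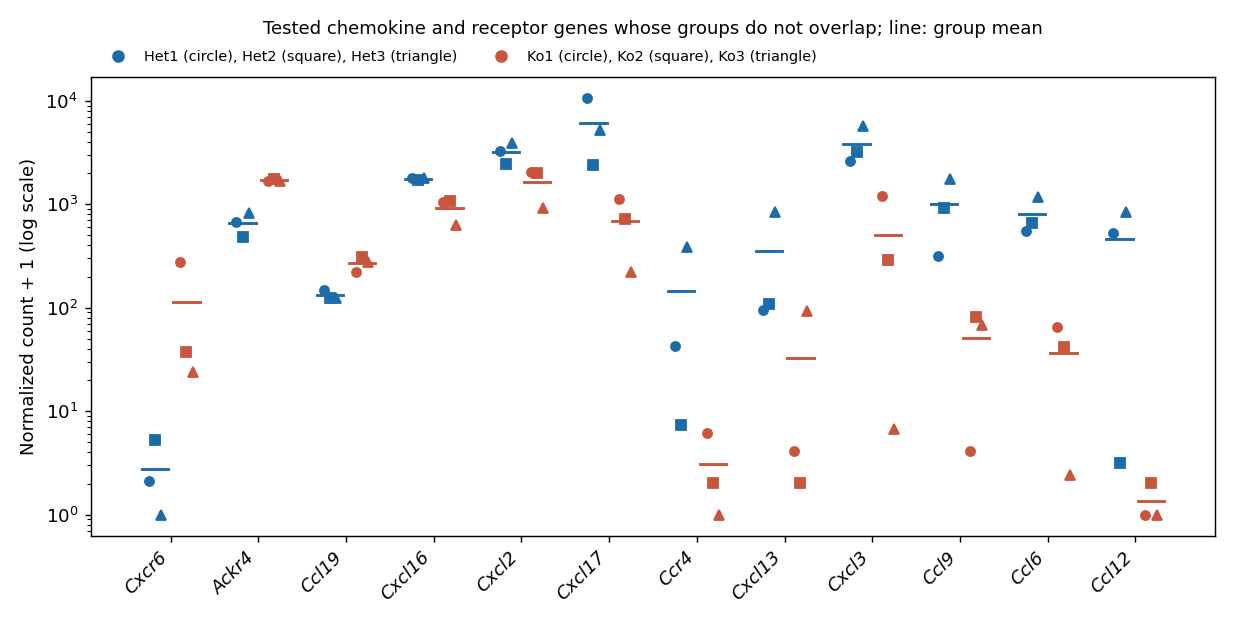
Points are the normalized counts + 1 (log axis) of the 12 tested genes whose groups do not overlap, by library, with the group mean as a line. Ackr4, Ccl19 and Cxcr6 have their Ko points above the Het points, and the other 9 genes have them below.

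Epithelial and mucosal chemokines included Cxcl17, the first member per kilobase of exon in the Het libraries. Cxcl17 (ENSMUSG00000060188), a mucosal chemokine-like protein, stood at 10650.3 in Het1, 2391 in Het2, 5213 in Het3, 1135 in Ko1, 714 in Ko2 and 221 in Ko3. All Het libraries lay above all Ko libraries, Het1 highest and Ko3 lowest. The libraries gave a Het mean of 6085 ± 4198 and a Ko mean of 689.7 ± 458 (n = 3 each, SD), 8.82-fold higher in Het, and the log2 fold change of -3.18 ± 0.62 (SE; limma adjusted p = 0.0509) missed the threshold. DESeq2 gave an adjusted p of 0.00339, and the adjusted p ran from 0.00339 to 0.569 over 13 alternatives. Of the 7 secretory cell markers, Reg3g, Fcgbp and Muc5b lay lower in Ko without overlap and the other 4 overlapped, with Bpifa1 highest in Ko2. Limma called Reg3g and Fcgbp, calls lost with edgeR (0.176 and 0.0826) and without Het2, Het3, Ko1 or Ko3 (Reg3g also without Het1). The sum was 134505 to 196169 in Het and 8366 to 106305 in Ko libraries, but without Reg3g the groups overlapped (19833 to 39654 and 6834 to 80404). The part of secretory cells in the Cxcl17 values was not tested.

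Cxcl16 (ENSMUSG00000018920) encodes a membrane-bound ligand that is shed and binds CXCR6 on T and innate lymphoid cells. It stood at 1791 in Het1, 1702 in Het2, 1792 in Het3, 1044 in Ko1, 1080.5 in Ko2 and 630.3 in Ko3. The Het values were within a narrow range and all above the Ko values, with a Het mean of 1762 ± 51.7 and a Ko mean of 918 ± 250.1 (n = 3 each, SD), 1.92-fold higher in Het and a log2 fold change of -0.98 ± 0.26 (SE; limma adjusted p = 0.131). The authors' deposited table and DESeq2 (0.0242) both call it lower, and the adjusted p ran from 0.0242 to 0.499 over 13 alternatives. It shares 552 of 3021 exon bases with Zmynd15 on the opposite strand, which stood at 159, 227 and 258 in Het and 78.2, 109 and 11.5 in Ko libraries. Zmynd15 was thus also lower in Ko without overlap. Strandedness is not given, so reads in the shared part cannot be assigned to 1 of the genes.

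Cxcr6 differed in the other direction from its ligand. It stood at 1.12 in Het1, 4.26 in Het2, 0 in Het3, 277 in Ko1, 36.3 in Ko2 and 22.9 in Ko3, on 8 reads in Het and 320 in Ko libraries. Ko1 held most of these reads, and the other Ko libraries still lay above all Het libraries. The log2 fold change came to 4.81 ± 1.47 (SE), at a limma adjusted p of 0.177, DESeq2 gave an adjusted p of 0.00187, and the adjusted p ran from 0.00187 to 0.516 over 13 alternatives. The gene lies inside Fyco1, on the opposite strand, sharing 0 exon bases. The 11 thymocyte markers summed to 266 to 528 in Het and 587 to 1336 in Ko libraries, a difference carried by Themis (8.39, 58.9 and 79.4 in Het and 434, 379 and 908 in Ko libraries). Without Themis the sums overlapped (207 to 449 and 153 to 428), and Cd8a, Cd8b1, Ptcra and Rag1 had means under 10. The part of T lineage cells in the Cxcr6 reads was not tested.

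Ccl27a, a skin chemokine and ligand of CCR10, stood at 507 in Het1, 1516 in Het2, 1085 in Het3, 673 in Ko1, 851 in Ko2 and 653 in Ko3, with overlapping groups and a log2 fold change of -0.39 ± 0.39 (SE; limma adjusted p = 0.727). Its near-identical copy Ccl27b had no read, so reads may be split between them or dropped. Ccl28, the mucosal ligand of CCR10, ranged over 2.80 to 32.7 in Het and 0 to 21.8 in Ko libraries, with a log2 fold change of -1.51 ± 1.68 (SE; limma adjusted p = 0.759). Ccr10 ranged over 1.12 to 54.8 in Het and 3.11 to 40.1 in Ko libraries, with a log2 fold change of 0.66 ± 1.75 (SE; limma adjusted p = 0.911) that changed sign in 5 of 12 alternatives. Cxcl14, an epithelial chemokine, stood at 70.5 in Het1, 54.7 in Het2, 7.21 in Het3, 128 in Ko1, 13.5 in Ko2 and 115 in Ko3, lowest in Het3 and Ko2, and the log2 fold change came to 0.91 ± 1.24 (SE), at a limma adjusted p of 0.810. Cx3cl1 (fractalkine), a membrane-anchored ligand, stood at 95.6 in Het1, 118 in Het2, 164 in Het3, 226 in Ko1, 164 in Ko2 and 251 in Ko3, with Ko2 just below Het3 and the other Ko libraries above every Het library. The Cx3cl1 log2 fold change came to 0.77 ± 0.52 (SE), at a limma adjusted p of 0.571, and its receptor Cx3cr1 had values of 0 to 6.17.

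The interferon-induced ligands of CXCR3, which attract activated T cells, all had positive log2 fold changes, and none passed the test or had groups without overlap. Cxcl10 was the second most abundant member per kilobase in each Het library. It stood at 8689.5 in Het1, 4866 in Het2, 15115 in Het3, 10143 in Ko1, 10564 in Ko2 and 25395 in Ko3, and the log2 fold change came to 0.70 ± 0.42 (SE), at a limma adjusted p of 0.523. Ko3 was highest and Het2 lowest for Cxcl10 and Cxcl11. Cxcl9 stood at 439.6 in Het1, 584 in Het2, 2348 in Het3, 1032 in Ko1, 2145 in Ko2 and 5632 in Ko3, with Ko3 highest, Het3 above Ko1 and Ko2, and a log2 fold change of 1.46 ± 0.68 (SE; limma adjusted p = 0.390). Cxcl11 stood at 766 in Het1, 368 in Het2, 756 in Het3, 698 in Ko1, 943 in Ko2 and 1979.6 in Ko3, with a log2 fold change of 0.87 ± 0.43 (SE; limma adjusted p = 0.425). Cxcl10 shares 133 of 2252 exon bases with Art3 on the opposite strand. Cxcr3 had at most 1.44 normalized counts in any library.

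All 20 listed interferon response genes were tested. Limma called 0, with 6 (30.0%, against 13.6% of all genes) at an unadjusted p under 0.05, edgeR called 0 and DESeq2 called 1 (Irf9, higher; 5%, against 2.1% of all genes). Of the 20, 12 had positive log2 fold changes, with a median of 0.20, beside -0.05 over all genes. The smallest p belonged to Irf9, a subunit of the interferon-activated ISGF3 complex, at a Het mean of 1838 ± 296 and a Ko mean of 3488 ± 354 (n = 3 each, SD) and a log2 fold change of 0.93 ± 0.19 (SE; limma adjusted p = 0.0644). Its partner Stat2 stood at a Het mean of 1321 ± 385 and a Ko mean of 2217 ± 452 (n = 3 each, SD), with a log2 fold change of 0.76 ± 0.26 (SE; limma adjusted p = 0.232). Groups did not overlap for 3 genes higher (15%, against 8.57% of all genes) and 4 lower in Ko (20.0%, against 9.86%).

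Monocyte and eosinophil attractants of the CC cluster on chromosome 11 had log2 fold changes of both signs. Ccl12 (ENSMUSG00000035352), a ligand of CCR2, stood at 521 in Het1, 2.13 in Het2, 846 in Het3, 0 in Ko1, 1.04 in Ko2 and 0 in Ko3. Het1 and Het3 held nearly all of its 1521 Het reads, Het2 was close to the Ko level, and the Ko libraries held 1 read. The ratio of rates, Het over Ko, was 1031 (95% interval 185 to 40730.0), an interval for counting error only, and the log2 fold change came to -6.46 ± 2.05 (SE), at a limma adjusted p of 0.197. DESeq2 gave an adjusted p of 0.00111, and the adjusted p ran from 0.00111 to 0.829 over 13 alternatives.

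Ccl8, a further monocyte attractant, stood at 852 in Het1, 83.8 in Het2, 1277 in Het3, 99.8 in Ko1, 148 in Ko2 and 1.43 in Ko3, highest in Het3 and Het1, while Het2 lay between the Ko values. The Ccl8 log2 fold change came to -3.77 ± 1.53 (SE), at a limma adjusted p of 0.317. Ccl2, the main ligand of CCR2, stood at 140.4 in Het1, 149 in Het2, 164 in Het3, 120.4 in Ko1, 541 in Ko2 and 529 in Ko3, with Ko1 below all Het libraries and Ko2 and Ko3 above them. Its log2 fold change came to 1.10 ± 0.62 (SE), at a limma adjusted p of 0.484. Ccl7, a further CCR2 ligand, stood at 382 in Het1, 106 in Het2, 1281 in Het3, 3204 in Ko1, 339 in Ko2 and 3588 in Ko3, with Ko1 and Ko3 highest and Ko2 within the Het range, and a log2 fold change of 2.07 ± 0.99 (SE; limma adjusted p = 0.402).

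Ccl11 (eotaxin), the eosinophil attractant that acts on CCR3, stood at 3016 in Het1, 699 in Het2, 4424 in Het3, 7441 in Ko1, 5952 in Ko2 and 1494 in Ko3. Ko1 and Ko2 were highest and Het2 and Ko3 lowest, and the log2 fold change came to 0.94 ± 0.71 (SE), at a limma adjusted p of 0.617. Ccl5, an attractant of T cells and monocytes, stood at 265 in Het1, 1376 in Het2, 2531 in Het3, 1606 in Ko1, 320.1 in Ko2 and 1176 in Ko3, with overlapping groups and a log2 fold change of -0.20 ± 0.80 (SE; limma adjusted p = 0.943) that changed sign without Het2, Het3 or Ko2. Ccl3, a ligand of CCR1, had 83 Het reads but 1 Ko read, with 2 of the Het reads in Het2, which lay at the level of Ko3 (1.42 and 1.43). The groups thus overlapped, and the pooled ratio of rates, Het over Ko, was 56.2 (95% interval 9.82 to 2248), counting error only. Its log2 fold change came to -3.33 ± 1.66 (SE), at a limma adjusted p of 0.425. Ccl4, its neighbour, had the opposite pattern, with 1 Het read and 28 Ko reads, all of these in Ko3, and was not tested. Ccl24 and Ccl26 had at most 5.14 and 2.06 normalized counts in any library.

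**Figure D4:**
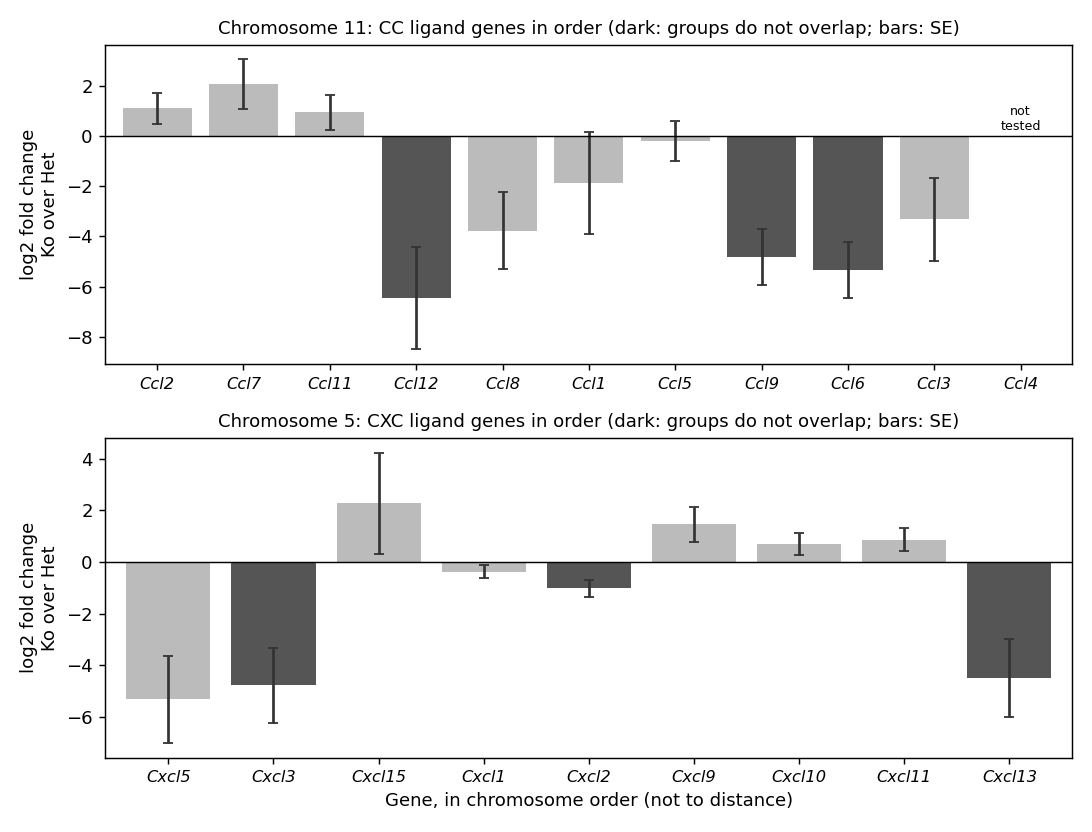
Bars are log2 fold changes, Ko over Het, with SE, of CC ligand genes on chromosome 11 (top) and CXC ligand genes on chromosome 5 (bottom) in gene order, dark where groups do not overlap. On chromosome 11 the bars point both ways. On chromosome 5 Cxcl5, Cxcl3, Cxcl1, Cxcl2 and Cxcl13 point down while Cxcl15, Cxcl9, Cxcl10 and Cxcl11 point up.

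Along chromosome 11, in the gene order of RefSeq GRCm38.p6, Ccl2, Ccl7 and Ccl11 had positive log2 fold changes and were followed by Ccl12, Ccl8 and Ccl1 with negative ones. On chromosome 5, Cxcl9, Cxcl10 and Cxcl11, which lie next to each other, had positive values between the negative ones of Cxcl2 and Cxcl13. Of these CXC genes, Cxcl3, Cxcl2 and Cxcl13 had groups without overlap. The authors' build is another (GRCm39), so no positions of their counts are given.

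Cxcl13 encodes the attractant of CXCR5-bearing B cells. It stood at 95.1 in Het1, 109 in Het2, 847 in Het3, 3.09 in Ko1, 1.04 in Ko2 and 91.7 in Ko3. Every Het library lay above every Ko library, but Ko3, at 91.7, was close to Het1, at 95.1. The log2 fold change came to -4.50 ± 1.51 (SE), at a limma adjusted p of 0.227, and the adjusted p ran from 0.0568 to 0.829 over 13 alternatives. Cxcr5 ranged over 3.36 to 80.8 in Het and 2.06 to 8.59 in Ko libraries, with a log2 fold change of -1.64 ± 1.55 (SE; limma adjusted p = 0.709), and shares 110 of 3332 exon bases with Bcl9l on the opposite strand. The 7 B cell markers summed to 2350 to 3506 in Het and 5122 to 5901 in Ko libraries, a difference carried by Cd79b, which limma called higher (adjusted p = 0.0433). That call was lost with edgeR (0.0826) and without any 1 library other than Het1. Without Cd79b the sums overlapped (356 to 1033 and 232 to 457), and Ms4a1 had a mean under 10. The part of B cells in the Cxcl13 and Cxcr5 values was not tested.

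Signalling receptors were low as a class. Of the 19, 3 had a mean of at least 50 (Ccr4, Ccr9 and Cxcr6) and 9 did not reach 10. Ccr2, the monocyte receptor for CCL2, ranged over 3.36 to 85.1 in Het and 4.30 to 23.7 in Ko libraries, with a log2 fold change of -1.32 ± 1.47 (SE; limma adjusted p = 0.759). Ccr3, the eosinophil receptor, ranged over 0 to 74.5 in Het and 0 to 11.5 in Ko libraries, with a log2 fold change of -1.0002 ± 1.99 (SE; limma adjusted p = 0.878). Chemokine receptor genes are active mainly in leukocytes. The dendritic cell markers Flt3, Itgax, Clec9a and Siglech had means under 10 and Cd209a was at 0 in all 6 libraries, while Zbtb46 (132 to 339) and Batf3 (0 to 98.1) overlapped between the groups. The sums of dendritic cell, NK and innate lymphoid, endothelial and fibroblast markers overlapped between groups, with Ko2 alone high for fibroblasts and pericytes (13509, against 911 to 2568 elsewhere).

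**Figure D5:**
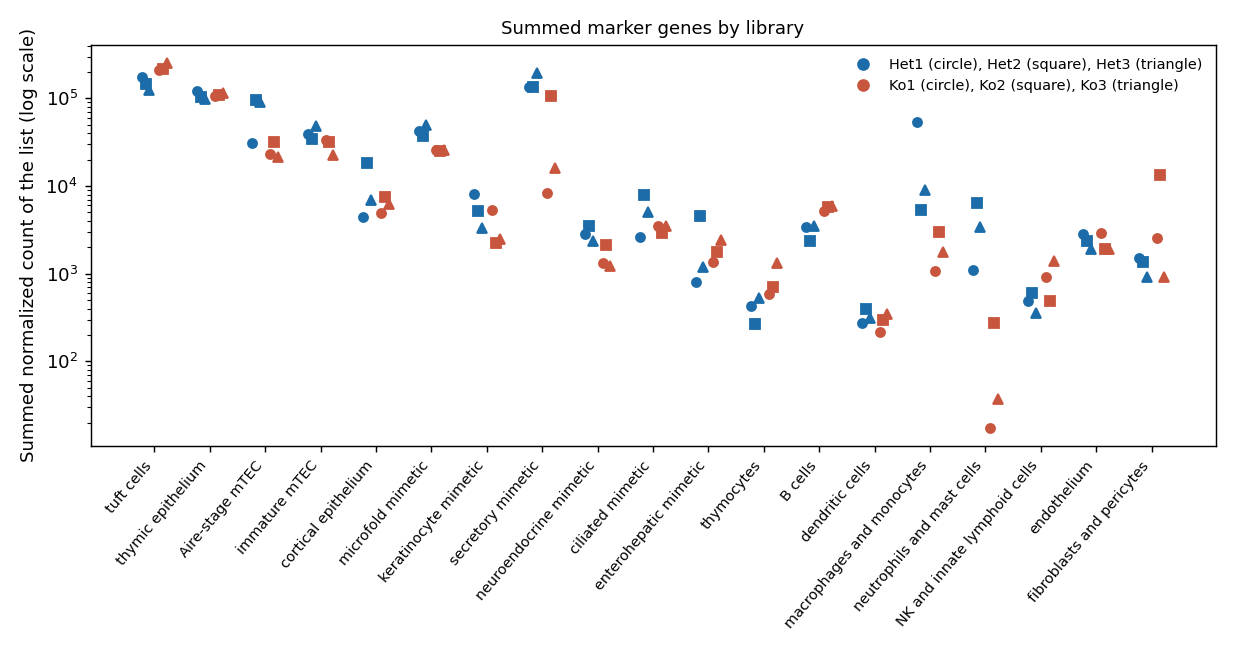
Points are summed normalized counts of each marker list (log axis) by library. Neutrophil and mast cell, macrophage and monocyte, microfold, secretory, immature mTEC (33985 to 47779 in Het, 22745 to 33307 in Ko) and neuroendocrine sums (2361 to 3499 in Het, 1210.4 to 2140 in Ko) lie lower in Ko libraries, and tuft cell, thymocyte and B cell sums lie higher, several of them through 1 or 2 genes.

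Summed over all 40 ligands, the libraries held 43525 normalized counts in Het1, 39905 in Het2, 74118 in Het3, 39192 in Ko1, 31135 in Ko2 and 50146 in Ko3. Means were 52516 ± 18795 in Het and 40158 ± 9542 in Ko libraries (n = 3 each, SD; two-sided exact permutation p = 0.4), and the groups overlapped. Cxcl10 made up 26.9% of the ligand counts. The 23 receptors, atypical ones included, summed to 1078, 860.5 and 1815 in Het and 2608, 2231 and 1997 in Ko libraries, without overlap. Their means were 1251 ± 500.3 and 2279 ± 308 (n = 3 each, SD; two-sided exact permutation p = 0.1, the smallest that 3 against 3 can give), and Ackr4 made up 66.7% of them. Without the atypical receptors the sums were 322, 329 and 824 in Het and 466, 268 and 244 in Ko libraries (exact permutation p = 0.5), and the groups overlapped.

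Per kilobase of exon (lengths from GENCODE M21 on GRCm38), Cxcl17 was the first member in all 3 Het libraries, at 13995, 3142 and 6850 normalized counts per kilobase in Het1, Het2 and Het3. In Het3 it lay just above Cxcl10, at 6712. Ccl11 was first in Ko1 and Ko2, at 6877 and 5500.5 per kilobase, and Cxcl10 in Ko3, at 11277. Per kilobase, the first place thus belonged to 1 gene in the Het libraries and to 2 in the Ko libraries. The ranking was not tested, and it depends on the lengths used. These count all annotated exon bases of a gene (761 for Cxcl17, 2252 for Cxcl10 and 7445 for Ccl25). In undivided counts Cxcl17 was first in Het1 (10650.3), Ccl25 in Het2 (13554) and Cxcl10 in Het3 (15115). Cxcl10 was also first in undivided counts in Ko1 (10143), Ko2 (10564) and Ko3 (25395).

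Genes that carry chemokine receptor signals inside the cell were listed as 35, of which 32 were tested. Limma called 1 higher (3.12%, against 0.288% of all genes) and 0 lower, with 5 (15.6%, against 13.6%) at an unadjusted p under 0.05 and a median log2 fold change of 0.03 beside -0.05 over all genes. The edgeR test called 0, and DESeq2 called 3, all higher (Gnb2, Pik3cg and Stat3; 9.38%, against 2.1%). The called gene was Pik3cg, the catalytic subunit of the PI3 kinase that acts downstream of G proteins, at a Het mean of 3495 ± 320.2 and a Ko mean of 6923 ± 866 (n = 3 each, SD), a 1.98-fold difference with a log2 fold change of 0.98 ± 0.16 (SE; limma adjusted p = 0.0328). The call held without Ko1 (adjusted p = 0.0393) and was lost without each of the other 5 libraries (0.0518 to 0.153), with edgeR (0.0509) and without a filter (0.194). Among 34 chemokine-like attractants, their receptors and the sterol and sphingolipid systems that also guide leukocytes, 26 were tested. Limma called 0, with 3 (11.5%, against 13.6% of all genes) at an unadjusted p under 0.05, edgeR called 0 and DESeq2 called 2 (Cd74 and Ppbp, lower; 7.69%, against 4.24%). The median was -0.21, beside -0.05 over all genes. The smallest p-values there belonged to Cd74, the invariant chain and MIF receptor, at a Het mean of 113371 ± 45484 and a Ko mean of 56042 ± 15483 (n = 3 each, SD; limma adjusted p = 0.189), and to Spns2, a sphingosine 1-phosphate exporter, at a Het mean of 231 ± 69.2 and a Ko mean of 68.3 ± 38.8 (n = 3 each, SD; limma adjusted p = 0.242).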

How the data were processed

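RNA of 6 samples (3 per genotype) was measured. The authors' tools, per the submitters' processing notes, were STAR 2.7.9a and DESeq2 (version not given), with the build GRCm39. No source used here names the read counter, the annotation, the strand setting or any filter. Each deposited value is a normalized signal, a gene's read count over the library's size factor. The authors' deposited comparison holds, per the file headers, a mean signal, a log2 fold change and its SE, a score (Wald statistic) and p-values before and after adjustment. Columns could be tied to groups, not to single samples. Dividing each column by what 1 read is worth gave whole reads for 100% of values (within 0.01 reads), 12238400 to 31435800 per library. These reads entered edgeR 4.0.16 and DESeq2 1.42.0 as alternatives, where edgeR called 75 genes and DESeq2 1118.

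The 19416 genes whose mean reached 10 entered limma 3.58.1 (R 4.3.3) as log2(value + 1), with lmFit and eBayes with trend, genotype as the only term, two-sided p-values and Benjamini-Hochberg adjustment over all of them at 0.05. Adding 1 understates the change of low genes, but the fit averages logs within a group, so a library near 0 can enlarge it. The log2 fold change of Ccl3 was -3.33, against -5.31 with edgeR. That of Xcr1 was -1.68, against -0.77 with edgeR. Scripts were tested on simulated data. Where a group held 1 to 3 reads, the ratio of rates carries an exact 95% interval for counting error only. Summed values were compared by exact permutation tests. Symbols matched 55144 identifiers. Exon lengths and overlaps came from GENCODE M21 (GRCm38) and promoters and gene order from RefSeq GRCm38.p6, builds other than the authors', and the promoter table held 46 member genes.

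The members, lists and markers were chosen with earlier results of these data known. The values of 1 member with a mean under 10 and of 1 marker gene are not reported here. Every member with a mean of at least 10 is named, with values per library where it was called, had groups without overlap or had a mean of at least 50 (35 members). From each pathway list the called genes, or else the 2 with the smallest p, are named. Marker sums are described without a test. Alternatives were another pseudocount (5), dropping the filter or raising it to 50, TMM scaling, edgeR, DESeq2, each library left out and a block by column number.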

Additional observations from a re-analysis of the deposited data

How the results depend on the processing

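Over 13 alternatives, the 547 refits of the 44 tested members that gave an adjusted p held 25 changes of sign, in 9 genes. None was among the 12 whose groups do not overlap. For those 12, limma refits of the deposited values, also without 1 library, keep the sign by construction. Their lack of sign changes is therefore no measure of how firm they are. The 56 genes called higher and 102 lower over all genes became 0 and 0 without a filter on low values, 24 and 51 with edgeR and 371 and 747 with DESeq2, and leaving out 1 library gave 0 to 47 higher and 0 to 94 lower, with 0 and 0 without Het3. Among the members, the 1 higher call (Ackr4) became 0 without a filter, 0 with edgeR, 2 with DESeq2 and 0 without any 1 library. The 0 lower calls became 2 with a pseudocount of 5 (Cxcl17, Ccl6), 1 at a mean of at least 50 (Cxcl17), 7 with DESeq2 and 0 to 2 without 1 library. Deviations of same-numbered columns from their group means were nearly uncorrelated (0.0250, 0.0214 and -0.0153). Columns cannot be tied to single samples, so a pairing among the samples could not be tested. With the column numbers as a replicate block 25 genes were higher and 62 lower, with 0 members higher and 2 lower (Cxcl17 and Ccl9). Ackr4 (adjusted p = 0.0761), Pik3cg (0.0565) and Cd79b (0.0744) were not called with the replicate block. Log2 fold changes of the opposite sign were, without 1 library, 0.25 for Ccl1 and 0.10 for Ccl17 (both without Ko2), 0.24 for Ccl25 (Het2), 0.045, 0.48 and 0.50 for Ccl5 (Het2, Het3, Ko2), 1.66, 1.24 and 1.28 for Ccl22 (Het3, Ko2, Ko3), -0.16, -0.059 and -0.33 for Ccr10 (Het1, Het2, Ko1), 0.27, 0.29 and 0.32 for Ccr9 (Het3, Ko1, Ko3) and -0.074 for Cxcl14 (Het3). Over all the refits without 1 library these genes ranged from -3.90 to 0.25 (Ccl1), -3.48 to 0.10 (Ccl17), -1.51 to 0.24 (Ccl25), -1.14 to 0.50 (Ccl5), -2.86 to 1.66 (Ccl22), -0.33 to 2.20 (Ccr10), -0.63 to 0.32 (Ccr9) and -0.07 to 1.93 (Cxcl14). With a pseudocount of 5 they were 0.18 for Ccl22 and 0.0032 for Ccr9, with TMM scaling 0.013 for Ccr9, with edgeR 1.84 for Ccl22, -0.16 for Ccr10, 0.24 for Ccr9 and -1.33 for Cxcl15, and with DESeq2 -0.20 for Ccr10 and 0.23 for Ccr9. DESeq2 also gave the opposite sign for Ccl22 (1.79) and Cxcl15 (-1.31). It gave no adjusted p for these genes, so they are not among the 25. The cause was not tested. The summed ligands and receptors kept their direction in every alternative run, but the ligand difference of -12358 normalized counts, Ko minus Het, was -1557 without Het3 and -7847 without Ko2. At the depth of Het3 and Ko3, 3 reads equal 4.33 and 4.30 normalized counts, and members near that level cannot be compared.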
